A study of Mus musculus with 10 samples.

Results

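The MEIS, PBX and PKNOX factors are the members of the TALE class of homeobox genes that act as partners of other transcription factors. 8 of their genes were followed here through the specification of blood cells in culture: Meis1, Meis2 and Meis3, Pbx2, Pbx3 and Pbx4, and Pknox1 and Pknox2. They were chosen by name, and are 8 of the 55487 genes in the count tables. All 8 were also among the 15686 genes of a matrix of stage averages, and all 8 passed the filter on low counts, which left 22596 genes for testing.

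TALE proteins carry a homeodomain with an extra loop of amino acids between its first helices, and bind DNA in pairs. A PBX protein pairs with a HOX protein or with a MEIS or PKNOX protein, and MEIS and PKNOX proteins compete for the same surface of PBX. MEIS1 is required in the mouse embryo for definitive blood, for megakaryocytes and for the maintenance of stem cells, and together with HOXA9 it drives leukaemia. MEIS2 is best known from heart, limb and neural crest, and PKNOX1, also called PREP1, is needed widely in the early embryo.

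The data are nuclear RNA-seq libraries of the HM-1 line of mouse ES cells and of its differentiated progeny. ES cells were taken undifferentiated on gelatin with LIF. Cells of the HB stage, the hemangioblast, were FLK1+ cells purified on magnetic beads from embryoid bodies formed for 3 days in serum. Plated in blast culture, HB cells gave the other stages, all sorted for KIT: HE1 and HE2 cells also carried TIE2 and were told apart by CD41, which HE2 cells had and HE1 cells lacked, while HP cells had CD41 without TIE2. HE1 and HE2 are the first and second stage of the hemogenic endothelium, and HP are the hematopoietic progenitors released from it. Each stage had 2 libraries of rRNA-depleted nuclear RNA, which makes 10, and no group carried a drug or an induced allele. All stages come from 1 ES cell line. The study calls the libraries of a stage biologically independent, while the labels do not say whether they came from separate differentiations, and p-values measure the spread between these libraries.

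Libraries held between 24920434 and 58782055 counts on genes, and the correlation of log2 CPM, the counts scaled to a common library size with TMM factors, between the libraries of a stage, across genes, lay between 0.967 in HE1 and 0.994 in ES. A floor of 3 counts was worth between 0.0510 and 0.120 CPM. It covers counting error only. Of the genes encoding the sorted antigens, Kdr, which encodes FLK1, rose from 2.43 and 2.70 CPM in ES to 957 and 1284 in HB, Itga2b, which encodes CD41, was at 227 and 127 in HE1 against 505 and 469 in HE2, and Tek, which encodes TIE2, was at 285 and 159 in HE2 against 61.5 and 64.2 in HP, a difference not called (adjusted p = 0.0722). Kit was at 164 and 173 CPM in ES, lower in HB (73.3 and 69.3) and not called from HB to HE1 (146 and 73.0, adjusted p = 0.177). It was higher in HE2 (230.3 and 410.3) than in HE1. Within the hemogenic endothelium the libraries of a stage stood apart. The 5 ES cell markers summed to 6.31 CPM in HE1 library 1 and 67.0 in HE1 library 2, and the 5 endothelium markers to 1776 in HE2 library 1 and 963 in HE2 library 2.

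The 3 MEIS genes encode nearly the same DNA-binding domain, and so their RNAs could be told apart only if the bases differ. The coding stretch of 63 codons over the homeodomain, called the homeobox, is shown for them because the results below turn on which of them was read. It was taken from the GENCODE transcripts of the GRCm38 build, 5' to 3' on the coding strand, and lies in 3 exons of each gene, namely exons 8 to 10 within chr11:18885615-18941733 on the minus strand for Meis1, chr2:115868767-116000205 on the minus strand for Meis2 and chr7:16182394-16184074 on the plus strand for Meis3. Capitals mark the bases that differ from Meis1.
Meis1: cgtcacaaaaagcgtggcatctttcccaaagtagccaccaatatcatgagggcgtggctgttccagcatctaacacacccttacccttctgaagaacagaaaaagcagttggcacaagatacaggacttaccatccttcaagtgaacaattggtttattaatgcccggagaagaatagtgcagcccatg
Meis2: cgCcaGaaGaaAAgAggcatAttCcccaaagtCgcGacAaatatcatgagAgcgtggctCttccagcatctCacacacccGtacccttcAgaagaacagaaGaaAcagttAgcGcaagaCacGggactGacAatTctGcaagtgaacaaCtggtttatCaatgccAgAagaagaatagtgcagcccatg
Meis3: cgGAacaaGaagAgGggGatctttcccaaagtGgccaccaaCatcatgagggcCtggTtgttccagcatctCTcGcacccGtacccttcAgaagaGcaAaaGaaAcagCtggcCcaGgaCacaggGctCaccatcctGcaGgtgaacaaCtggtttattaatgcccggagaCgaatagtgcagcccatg
Of the 189 bases, 30 differ between Meis1 and Meis2 and 29 between Meis1 and Meis3, spread over the whole stretch, and identity is 84.1% and 84.7%. The same stretch of Meis1 is 65.1% identical to that of Pknox1 and 50.8% to that of Pbx2. Between the protein-coding transcripts of any pair of the 8 genes no run of 50 bases is shared, and the longest shared run, between Meis1 and Meis2, is 32 bases.

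The PKNOX pair is shown in the same way, with capitals at the bases of Pknox2 that differ from Pknox1. The stretch lies in exons 7 to 9 of Pknox1 (chr17:31599569-31603223, plus strand) and in exons 8 to 10 of Pknox2 (chr9:36894462-36909703, minus strand).
Pknox1: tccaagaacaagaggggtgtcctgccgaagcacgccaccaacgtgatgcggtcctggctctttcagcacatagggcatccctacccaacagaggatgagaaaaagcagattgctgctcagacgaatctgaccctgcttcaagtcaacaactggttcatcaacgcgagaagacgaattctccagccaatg
Pknox2: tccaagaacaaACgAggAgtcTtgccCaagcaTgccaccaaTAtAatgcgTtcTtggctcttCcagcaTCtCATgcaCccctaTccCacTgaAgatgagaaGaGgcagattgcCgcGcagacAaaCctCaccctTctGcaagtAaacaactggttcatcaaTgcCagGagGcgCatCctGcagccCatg
Here 41 of the 189 bases differ, more than within the MEIS genes. The PBX homeoboxes differ from Pbx2 at 33 bases in Pbx3 and 34 in Pbx4.

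The 8 genes followed different courses, and 7 of them differed among the 5 stages. Meis1 rose at each entry into a stage of the hemogenic endothelium, while Meis2, Meis3, Pbx3 and Pknox2 rose from ES to HB and were lower again later. Pbx2 was high throughout from HB on, Pbx4 was highest in ES, and Pknox1 stayed within a narrow range. The edgeR quasi-likelihood F test over all 5 stages called 7 of 8 members at an adjusted p under 0.05, with adjusted p between 1.19e-06 for Meis1 and 0.00379 for Pbx4. It called 66.7% of all tested genes. Pknox1 was not called (adjusted p = 0.0978), and without HE1 library 1 it was (adjusted p = 0.0280).

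**Figure D1:**
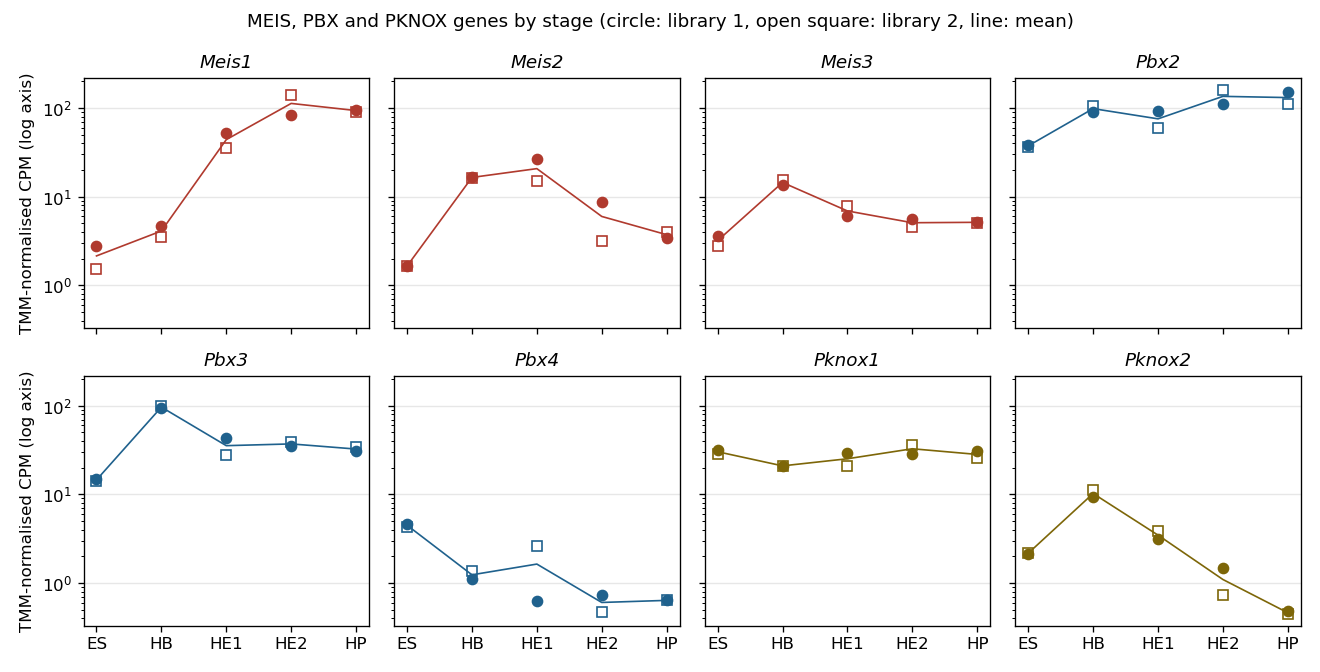
TMM-normalised CPM (log axis) of the 8 genes in each of the 10 libraries, by stage; circles are library 1, open squares library 2 and lines join the stage means. Meis1 climbs from 2.15 CPM in ES to 113 in HE2, while Meis3, Pbx3 and Pknox2 peak in HB and Pknox1 stays between 20.8 and 36.6.

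Meis1 lies on chromosome 11 (18879817 to 19018985, minus strand), with 10532 bases of exon. It was at 2.75 and 1.55 CPM in ES, at 4.66 and 3.55 in HB, at 53.0 and 35.1 in HE1, at 84.4 and 141 in HE2, and at 96.3 and 91.2 in HP. Every library of HE1 lay above those of ES and HB, and every library of HE2 and HP above those of HE1, whereas the HP libraries fell between those of HE2. The difference between HB and ES was 0.90 ± 0.34 (log2, SE) and was not called (adjusted p = 0.0563), although without ES library 1 it was 1.41 (adjusted p = 0.0253). From HB to HE1 Meis1 rose 10.7-fold (log2 3.43 ± 0.34, adjusted p = 6.85e-05). It rose again from HE1 to HE2, by 2.56-fold (1.36 ± 0.30, adjusted p = 0.0212), a call that is lost without HE1 library 2 (1.09, adjusted p = 0.127) or HE2 library 2 (0.95, adjusted p = 0.177). The stage means of Meis1 spanned 52.5-fold, the widest range of the 8 genes. As these are bulk libraries, here and below a change in how many cells of a type were present and a change in RNA per cell cannot be told apart.

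The count of Meis1 includes fragments that also fell on Gm37818, a gene model on the same strand that shares 1029 bases of exon with it, because a fragment that overlapped several genes had been counted on each. Gm37818 had between 8 and 23 counts in ES and HB and between 203 and 564 in the later libraries, against 54 to 155 and 1064 to 4455 for Meis1. Subtracting all of its counts left the calls of Meis1 as they were.

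Meis2 lies on chromosome 2 (115863064 to 116065839, minus strand). It was at 1.67 and 1.64 CPM in ES, at 16.7 and 16.3 in HB, at 26.4 and 15.1 in HE1, at 8.78 and 3.21 in HE2, and at 3.42 and 4.04 in HP. The HB and HE1 libraries overlapped, the later ones were all lower, and the lowest were those of ES. Meis2 rose 9.97-fold from ES to HB (log2 3.32 ± 0.45, adjusted p = 0.000232), the largest rise of any member at that step. From HE1 to HE2 it fell by 1.79 ± 0.42 on the log2 scale (adjusted p = 0.0249), at the step where Meis1 rose. This call is lost without HE1 library 1 (-1.31, adjusted p = 0.0535) or HE2 library 2 (-1.23, adjusted p = 0.131), and with only the 4 libraries compared in the fit, where the fall was as large (-1.79, adjusted p = 0.0693).

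Meis3, on chromosome 7 (16175090 to 16186504, plus strand), was at 3.58 and 2.81 CPM in ES, at 13.5 and 15.4 in HB, at 6.06 and 7.76 in HE1, at 5.61 and 4.57 in HE2, and at 5.20 and 5.09 in HP. Both HB libraries stood above all others, and both ES libraries below. It rose 4.51-fold from ES to HB (log2 2.17 ± 0.27, adjusted p = 0.000119). It then fell by 1.07 ± 0.26 from HB to HE1 (adjusted p = 0.0107), which is close to the limit of 2-fold: without HE1 library 1 the fall was under 2-fold (-0.95), and without HB library 2 it was -1.01 with an adjusted p of 0.0761. After HE1 its change at each step was under 2-fold and was not called.

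Because CPM do not correct for gene length, the balance within a family was taken from RPKM, which are CPM per kilobase of exon. In ES cells the summed RPKM of the 3 MEIS genes was 1.35 ± 0.25 (SD, n = 2) and Meis3 made up 73.9% and 75.8% of it. In HB the sum was 6.32 ± 0.33, with 69.9% and 74.2% from Meis3, 22.8% and 20.6% from Meis2 and 7.26% and 5.14% from Meis1. In HE1 Meis1 made up 55.1% and 47.4%, in HE2 76.3% and 88.7%, and in HP 82.6% and 81.7% of sums of 8.09 ± 1.49, 12.8 ± 3.3 and 10.8 ± 0.3 RPKM. In RPKM the leading MEIS gene was thus Meis3 in all 4 libraries of ES and HB and Meis1 in all 6 later ones. The lead of Meis3 over Meis2 in HB depends on the length, taken over all annotated exons (3173 bases against 12043). In CPM Meis2 was above Meis3 in both HB libraries (16.7 and 16.3 against 13.5 and 15.4).

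**Figure D2:**
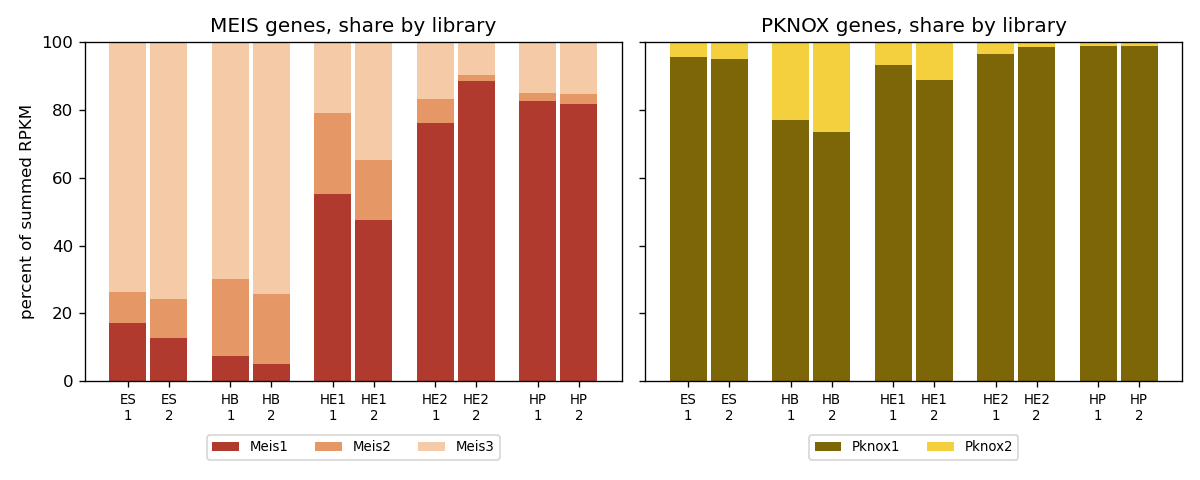
Percent of the summed RPKM of the MEIS genes (left) and of the PKNOX genes (right) given by each gene, one bar per library, with stage and library number under it. Meis3 gives 69.9% to 75.8% of the MEIS sum in ES and HB and Meis1 76.3% to 88.7% in HE2 and HP, while Pknox1 gives at least 73.7% of the PKNOX sum in every library.

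The change of balance was tested on the log2 ratio of RPKM in each library, with an exact permutation test over all 113400 allocations of the 10 libraries to the 5 stages and adjustment over the 5 ratios examined. The log2 ratio of Meis2 to Meis1 was positive only in HB (1.64 and 1.99). It was negative in ES (-0.90 and -0.12), HE1 (-1.20 and -1.41), HE2 (-3.45 and -5.63) and HP (-4.99 and -4.67). Its stage means spanned 6.64 (exact p = 0.00741, adjusted p = 0.00926). The ratio of Meis3 to Meis1 went from 3.26 and 3.83 in HB to -2.17 and -3.20 in HE2, a span of 6.23 between stage means (exact p = 0.00317, adjusted p = 0.00794). In RPKM Meis3 was 11.7-fold above Meis1 in HB and Meis1 was 6.43-fold above Meis3 in HE2.

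**Figure D3:**
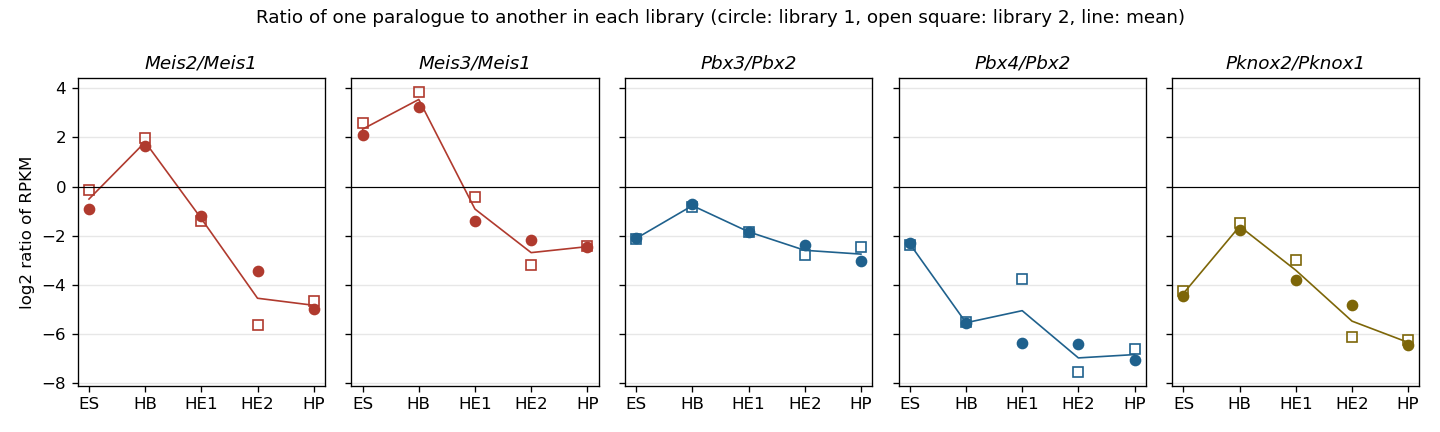
Log2 ratio of the RPKM of one paralogue to that of another, by stage, in each library (circles library 1, open squares library 2, lines stage means; 0 marks equal levels). Meis3/Meis1 crosses 0 between HB and HE1, falling from 3.54 to -0.91, whereas the PBX and PKNOX ratios stay below 0 in every library and are closest to it in HB for Pbx3/Pbx2 and Pknox2/Pknox1.

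The PKNOX genes showed one steady and one changing member. Pknox1, on chromosome 17 (31564734 to 31607693, plus strand), was at 31.9 and 28.7 CPM in ES, at 21.1 and 20.9 in HB, at 29.7 and 20.8 in HE1, at 28.9 and 36.6 in HE2, and at 30.8 and 25.7 in HP. Its stage means spanned 1.56-fold, the least of the 8 genes. At no step was it called, the largest difference being that between HB and ES (-0.53 ± 0.20, adjusted p = 0.0602).

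Pknox2, on chromosome 9 (36890982 to 37147407, minus strand), was at 2.13 and 2.21 CPM in ES, at 9.32 and 11.2 in HB, at 3.11 and 3.83 in HE1, at 1.46 and 0.730 in HE2, and at 0.479 and 0.445 in HP. From HB on every stage lay below the one before, without overlap. It rose 4.72-fold from ES to HB (log2 2.24 ± 0.36, adjusted p = 0.000761), fell by 1.56 ± 0.36 from HB to HE1 (adjusted p = 0.00850) and fell by 1.66 ± 0.38 from HE1 to HE2 (adjusted p = 0.0234). Without HB library 2 the fall from HB to HE1 was of similar size but no longer called (-1.46, adjusted p = 0.0633), and it lay between -1.75 and -1.46 when any 1 library was left out. The call from HE1 to HE2 is lost without HE1 library 2 (-1.50, adjusted p = 0.0871) or HE2 library 2 (-1.23, adjusted p = 0.175), and with only the 4 libraries compared in the fit (-1.68, adjusted p = 0.118). In HP it had 21 and 14 counts, above the floor of 3.

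Pknox2 gave 4.28% and 4.91% of the summed PKNOX RPKM in ES, 22.9% and 26.3% in HB and 1.03% and 1.15% in HP. The log2 ratio of Pknox2 to Pknox1 spanned 4.73 between the stage means of HB and HP (exact p = 0.00106, the smallest these allocations can give, adjusted p = 0.00529). The CPM stage means of Pknox2 spanned 22.2-fold, against 1.56-fold for Pknox1.

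Of the PBX genes, Pbx2, Pbx3 and Pbx4 were analysed here. Pbx2, on chromosome 17 (34591266 to 34597400, plus strand), was at 38.1 and 36.8 CPM in ES, at 91.1 and 106 in HB, at 91.9 and 59.5 in HE1, at 110.2 and 161 in HE2, and at 151 and 112 in HP. All ES libraries lay below all others, and the libraries of HB, HE1, HE2 and HP overlapped in part. Pbx2 rose 2.63-fold from ES to HB (log2 1.40 ± 0.25, adjusted p = 0.00126). From HE1 to HE2 it differed by 0.84 ± 0.24 (adjusted p = 0.0472), which is under 2-fold and so was not called, but without HE1 library 1 it was 1.22 (adjusted p = 0.0148) and without HE2 library 1 it was 1.11 (adjusted p = 0.0174). In RPKM Pbx2 was the highest of the 8 genes at every stage, from 10.3 ± 0.3 in ES to 37.3 ± 9.9 in HE2. Pbx2 shares 227 bases of exon with Gpsm3 on the same strand, which had 7.64% to 17.1% as many counts, and subtracting these changed no call of Pbx2.

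Pbx3, on chromosome 2 (34171457 to 34373142, minus strand), was at 15.0 and 14.2 CPM in ES, at 93.9 and 99.4 in HB, at 43.2 and 27.8 in HE1, at 35.2 and 39.1 in HE2, and at 31.1 and 33.9 in HP. The HB libraries stood above all others. Those of HE1 spanned those of HE2 and HP, and both HE2 libraries lay above both of HP. Pbx3 rose 6.62-fold from ES to HB (log2 2.73 ± 0.21, adjusted p = 5.52e-06) and fell by 1.45 ± 0.20 from HB to HE1 (adjusted p = 0.000462). Both calls were kept when any 1 library was left out. The log2 ratio of Pbx3 to Pbx2 was -2.09 and -2.12 in ES, -0.70 and -0.84 in HB and -3.03 and -2.47 in HP (exact p = 0.00635, adjusted p = 0.00926 over the 5 stages). In RPKM Pbx2 was 1.71-fold above Pbx3 in HB and 6.71-fold above it in HP.

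Pbx4, on chromosome 8 (69832491 to 69872292, plus strand), is known mainly from the testis. It was at 4.65 and 4.33 CPM in ES, at 1.12 and 1.35 in HB, at 0.631 and 2.64 in HE1, at 0.731 and 0.476 in HE2, and at 0.639 and 0.636 in HP, with 15 to 80 counts in the libraries after ES. It fell by 1.85 ± 0.56 on the log2 scale from ES to HB (adjusted p = 0.0231), a call that is lost without any 1 of the 4 libraries compared (adjusted p from 0.0759 without ES library 2 to 0.130 without HB library 1), although the difference stayed between -1.99 and -1.70. HE1 library 2 stood apart, 4.19-fold above HE1 library 1, and it is also the library in which the 5 ES cell markers were 10.6-fold higher; the part of these markers in the value of Pbx4 was not tested. Without that library the difference between HE1 and HB turned from 0.42 to -0.97 (adjusted p = 0.177). Without HE1 library 1, in contrast, Pbx4 was called as lower in HE2 than in HE1 (-2.10, adjusted p = 0.0106) and in HP than in HE1 (-2.02, adjusted p = 0.00701). The ratio of Pbx4 to Pbx2 had an adjusted exact p of 0.0360, which leaving out any library but those of HE1 raised to between 0.0646 and 0.142.

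Set side by side, the steps differed in how many of the 8 genes were called, at an adjusted p under 0.05 and at least 2-fold. From ES to HB 5 members were higher (Meis2, Meis3, Pbx2, Pbx3 and Pknox2), against 11.5% of all tested genes, and 1 was lower (Pbx4), against 17.3%. From HB to HE1 1 was higher (Meis1), against 12.7%, and 3 were lower (Meis3, Pbx3 and Pknox2), against 8.19%. Between HE1 and HE2 1 was higher (Meis1), against 3.26%, and 2 were lower (Meis2 and Pknox2), against 5.39%. Over all tested genes the balance at this step changed with the fit. It was 737 higher and 1217 lower here, but 364 higher and 171 lower with only the 4 libraries compared.

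From HE2 to HP no member was called, and edgeR called 0% of all tested genes as higher and 0% as lower. Of all tested genes 1783 had an unadjusted p under 0.05 at this step, limma-voom called 62 and DESeq2 301. The nearest member was Pknox2 (-1.24 ± 0.41, edgeR adjusted p = 0.356). HP against HE1, which shares the HP libraries with HP against HE2 and the HE1 libraries with HE1 against HB and HE2 against HE1, called Meis1 as higher (1.09 ± 0.30, adjusted p = 0.0234), against 5.35% of all tested genes, and Meis2 (-2.48 ± 0.43, adjusted p = 0.00267) and Pknox2 (-2.90 ± 0.41, adjusted p = 0.000971) as lower, against 11.2%. The call of Meis1 is lost without HE1 library 2 (0.82, adjusted p = 0.157), HP library 1 (1.06, adjusted p = 0.108) or HP library 2 (1.14, adjusted p = 0.0571), while those of Meis2 and Pknox2 were kept when any 1 library was left out. Pbx2 was 1.74-fold higher in HP than in HE1 (0.80 ± 0.24, adjusted p = 0.0367), and passed 2-fold without HE1 library 1 (1.17, adjusted p = 0.0111) or HP library 2 (1.02, adjusted p = 0.0373).

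**Figure D4:**
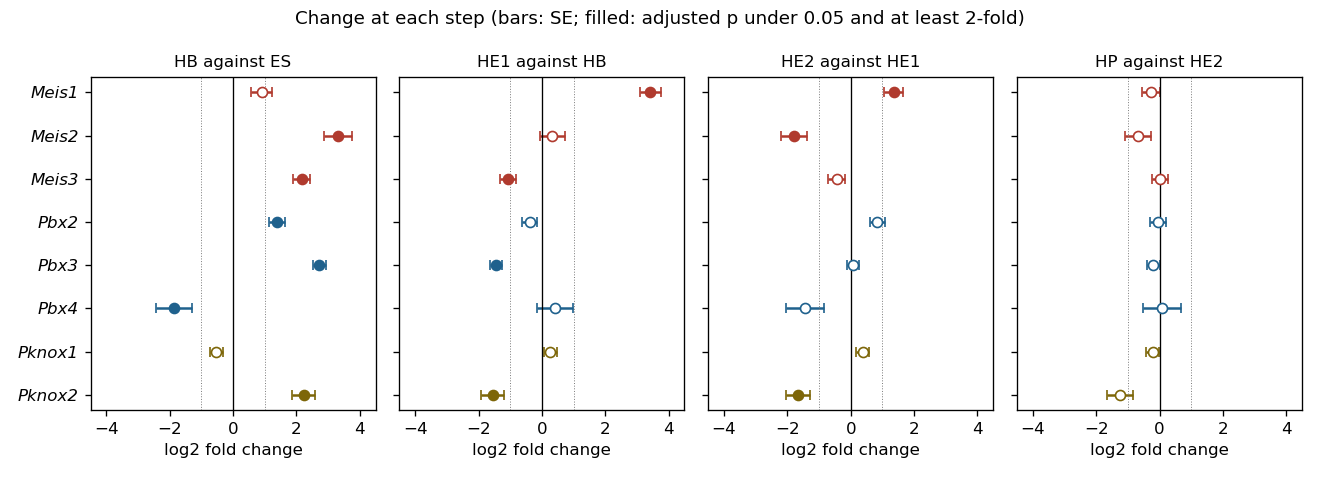
Log2 fold change of each gene at the 4 successive steps, with SE as bars; filled points have an adjusted p under 0.05 and at least a 2-fold change, and dotted lines mark 2-fold. 6 points are filled from ES to HB, 4 from HB to HE1, 3 from HE1 to HE2 and 0 from HE2 to HP.

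The genes whose log2 CPM over the 10 libraries was most like that of each member were looked up among the 22595 other tested genes. For Meis1 they were Sertad2 and Sting1, both with a Pearson r of 0.992, and Gm37818, which shares its exon. Those of Meis2 were Peg3 (0.995), Usp29 (0.994) and Spats2l (0.993), of which Peg3 and Usp29 are neighbouring imprinted genes. Those of Meis3 were Gpc6 (0.993), Rgs5 (0.993) and Msx2 (0.992), those of Pbx3 Cnksr3 (0.993), Tut4 (0.992) and Amot (0.988), those of Pknox2 Tead2 (0.992), Galnt11 (0.990) and Tulp3 (0.990), and those of Pbx4 Platr5, Fstl5 and Hr (0.988 to 0.989). With 5 stages of 2 libraries these values describe shared stage means, and the best of so many genes is high by choice. Between members, r was highest for Meis3 and Pbx3 (0.917) and lowest for Pbx2 and Pbx4 (-0.947).

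HOX proteins are the partners with which PBX and MEIS factors bind in blood. Of 8 HOX genes listed, 6 were tested, and the 4 HOXB genes among them (Hoxb3, Hoxb4, Hoxb5 and Hoxb6) rose from ES to HB, against 11.5% of all tested genes. Neither ES library had a count of Hoxb5 or Hoxb6. Hoxb4, known for expanding blood stem cells when overexpressed, was at 0.0710 and 0.0861 CPM in ES, at 3.54 and 4.20 in HB, at 24.2 and 11.3 in HE1, at 12.4 and 5.52 in HE2, and at 2.97 and 3.72 in HP. It rose from HB to HE1 (log2 2.2 ± 0.44, adjusted p = 0.00430), as did Hoxb5 (3.17 ± 0.63, adjusted p = 0.00500). From HE1 to HP Hoxb3, Hoxb4 and Hoxb5 fell, by 3.10, 2.41 and 3.57 on the log2 scale, against 11.2% of all tested genes. The median log2 change of the 6 tested genes from HE1 to HP was -3.23, against -0.02 over all tested genes. Hoxa7 and Hoxa9 reached stage means of at most 0.350 and 0.371 CPM and were not called at any step, and Hoxa5 and Hoxa10 did not pass the filter.

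**Figure D5:**
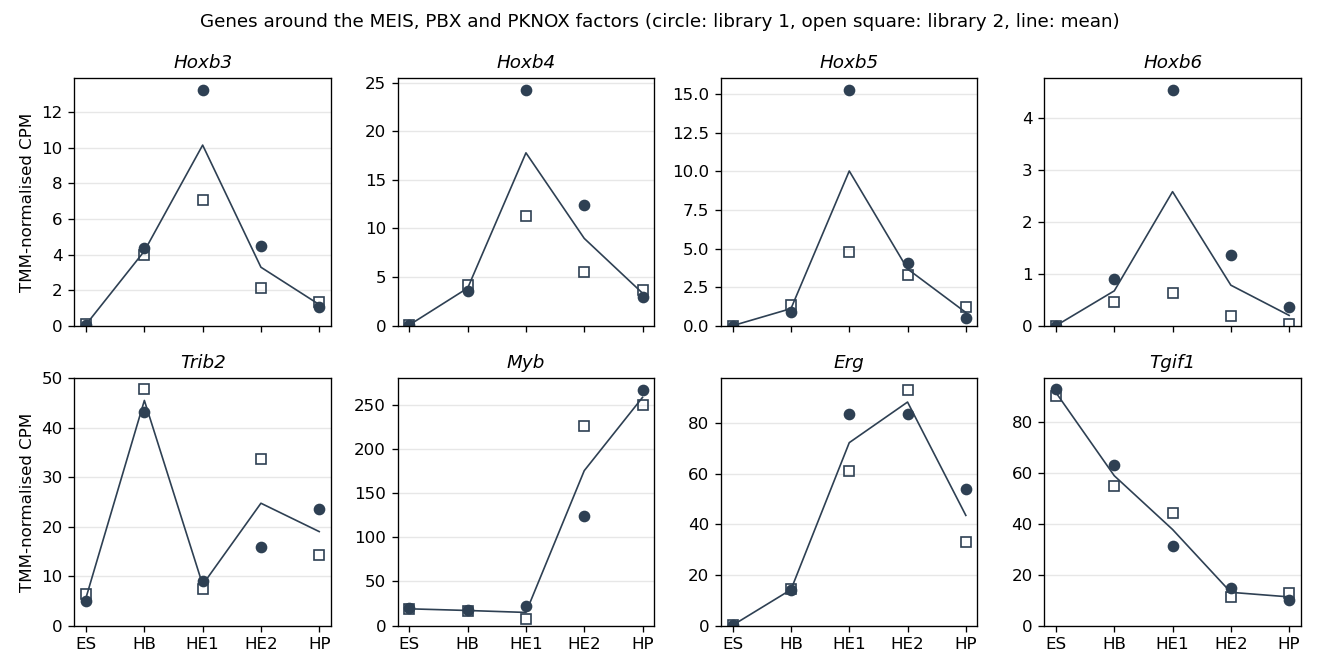
TMM-normalised CPM (linear axes that start at 0 and differ between panels) of HOX partners, Trib2, Myb, Erg and Tgif1 in each library, by stage; circles are library 1, open squares library 2 and lines join the means. The stage means of the HOXB genes are highest in HE1, where their libraries lie apart (24.2 and 11.3 CPM for Hoxb4). For Hoxb6 only HE1 library 1 is high (4.54 CPM), and library 2 (0.628) lies within the range of HB. Myb is high in HE2 and HP only.

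Of 9 genes known as targets of MEIS1 in blood or leukaemia, 8 were tested. Erg, a transcription factor of endothelium and blood stem cells, rose from ES to HB (log2 6.84 ± 0.36, adjusted p = 8.33e-07) and from HB to HE1 (2.35 ± 0.24, adjusted p = 7.90e-05). Cdk6, a cell cycle kinase, fell from HB to HE1 by 1.00 ± 0.24 (adjusted p = 0.00936), differed by 0.95 ± 0.24 from HE1 to HE2, under 2-fold (adjusted p = 0.0310), and was higher in HP than in HE1 (1.05 ± 0.24, adjusted p = 0.00961). From HE1 to HE2 Myb, a transcription factor needed for definitive blood, rose (3.57 ± 0.45, adjusted p = 0.00185), from 22.6 and 7.13 CPM to 125 and 227. Pf4, a platelet chemokine, went from 0.0421 and 0 CPM in HE1 to 2.01 and 1.40 in HE2 (adjusted p = 0.0201) and was at 3.08 and 0.350 in HP. Of the 8, 1 was higher and 1 lower from ES to HB (11.5% and 17.3% of all tested genes). From HB to HE1, where Meis1 rose, 1 was again higher and 1 lower (12.7% and 8.19%). From HE1 to HE2 2 were higher and 0 lower (3.26% and 5.39%), and from HE1 to HP 3 and 0 (5.35% and 11.2%). Their median log2 change was, in turn, -0.13, 0.37, 0.62 and 0.49, against 0, 0.04, -0.08 and -0.02 over all tested genes. Flt3 did not pass the filter, and Hlf, called as lower in HB than in ES, was at 1.45 CPM or less in the stage means.

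Among 7 cofactors and regulators of the turnover of MEIS or PBX proteins, Pbxip1, which binds PBX proteins, and Crbn, Ddb1, Cul4a and Cul4b, subunits of an E3 ligase that can act on MEIS2, did not pass both thresholds at any step. From ES to HB Cul4b differed by -0.89 (adjusted p = 0.00292) and Cul4a by 0.76 (adjusted p = 0.00156), both under 2-fold. Trib2, which encodes a pseudokinase that recruits an E3 ligase, is also known as a target of MEIS1 in leukaemia but is not among the 9 targets above or in their median. It was at 43.2 and 47.9 CPM in HB, 9.09 and 7.43 in HE1, and 15.8 and 33.7 in HE2. It rose from ES to HB (log2 3.01 ± 0.36, adjusted p = 0.000109), fell by 2.46 ± 0.36 in HE1 (adjusted p = 0.000674) and rose by 1.58 ± 0.35 in HE2 (adjusted p = 0.0212). Crtc1, a coactivator of CREB, rose from HB to HE1 by 1.02 ± 0.16 (adjusted p = 0.000963).

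The other TALE class genes are the TGIF repressors, the IRX genes and Mkx. Of 9 listed, 8 were tested. In HB Irx1 and Irx3 were higher than in ES, against 11.5% of all tested genes, and Irx2 was lower, against 17.3%. From HE1 to HE2 4 were lower (Tgif1, Irx3, Irx5 and Mkx), against 5.39% of all tested genes, and 0 higher, with a median log2 change of -1.62 against -0.08 over all tested genes. From HE1 to HP 5 were lower (Tgif1, Irx2, Irx3, Irx4 and Mkx), against 11.2%, of which Irx4 had no count in either HP library and 1 and 12 counts in those of HE1. Several of these genes were higher in HE1 library 2, in which the ES cell markers stood apart, than in HE1 library 1: Irx5 was at 0.421 and 3.17 CPM in libraries 1 and 2, Mkx at 1.85 and 5.19 and Irx3 at 1.51 and 2.97. The part of that library in these calls was not tested. Tgif2 had stage means of 57.1 CPM in ES and 61.5 in HB against 39.5, 44.9 and 41.3 in the later stages, and differed by -0.64 from HB to HE1 (adjusted p = 0.0185), under 2-fold. Neither it at any step nor Irx1 after HB was called. Tgif1, which encodes a repressor of SMAD and retinoid targets, was at 93.2 and 90.2 CPM in ES, at 63.1 and 54.8 in HB, at 31.3 and 44.3 in HE1, at 14.8 and 11.3 in HE2, and at 9.92 and 12.6 in HP. It fell by 1.53 ± 0.21 from HE1 to HE2 (adjusted p = 0.00287).

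Cell type markers moved at the same steps. Of all tested genes 11.5% were higher and 17.3% lower from ES to HB, and 12.7% and 8.19% from HB to HE1. The shares were 3.26% and 5.39% from HE1 to HE2, and 5.35% and 11.2% from HE1 to HP. From ES to HB all 5 ES cell and all 5 neural markers were lower. Mesenchyme markers were lower for 3 and higher for 1 at that step. Of the endothelium and of the blood markers 3 were higher and 1 lower, of the cardiac markers 2 and 1, and of the endoderm markers 1 and 0. In HE2 all 5 blood markers (Itga2b, Spi1, Gfi1b, Ptprc and Myb) were higher than in HE1. They summed to 259 and 140.1 CPM in HE1 libraries 1 and 2 and to 700.1 and 846 in those of HE2. All 5 ES cell markers were lower, from sums of 6.31 and 67.0 to 2.86 and 2.19. In HP, too, all 5 blood markers were higher and all 5 ES cell markers lower than in HE1. Of the blood markers 2 (Itga2b and Ptprc) were also higher in HE1 than in HB, and 0 lower. From HB to HE1, where Meis1 rose, all 5 endothelium markers were higher, with sums of 246 and 217 CPM in HB and 2987 and 1791 in HE1, and from HE1 to HP all 5 were lower, with sums of 437 and 495 in HP. Of the 5 haemangioblast markers, which all rose from ES to HB, 3 (Pdgfra, Etv2 and Mesp1) were lower in HE1 than in HB, where Meis3, Pbx3 and Pknox2 fell. Mesenchyme markers, of which 4 of 5 were higher in HE1 than in HB, summed to 63.5 to 65.7 CPM in HB and 549.5 to 1122 in the 6 later libraries. Of the other lists, 3 of 5 cardiac and 3 of 5 neural markers were higher in HE1 than in HB while 1 cardiac marker, Myl7, was lower (11.5 and 16.0 CPM in HB against 0.379 and 1.42 in HE1), and of 3 tested endoderm markers 1 (Hnf4a) was lower. Of the cardiac markers 3 were lower in HE2 and 4 in HP than in HE1, where Meis2 fell, and their sums were 25.4 and 93.4 CPM in HE1 against 15.6 and 6.83 for the HE2 libraries and 11.7 and 7.41 for those of HP. At the same steps 2 and 4 of the 5 haemangioblast markers and 1 and 3 of the 5 neural markers were lower. The part of these markers in the courses of Meis1, Meis2, Meis3, Pbx2, Pbx3, Pbx4 and Pknox2 was not tested.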

How the data were processed

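Nuclear RNA was measured in 10 libraries, 2 for each of 5 stages. The authors removed reads of rRNA, trimmed with Trimmomatic, used Hisat2 (v2.2.1) with the mm10 genome and, per the file headers, ran featureCounts (v2.0.1) in reverse-stranded mode over Ensembl exons, with a fragment counted for every gene it overlapped; these deposited counts are not normalised. The authors also deposited a matrix with 1 score per gene and stage, an average over libraries after normalisation of the counts. It gave the names by which the members were found, and its values were used only as an alternative.

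The main test was the quasi-likelihood F test of edgeR (v4.0.16; R v4.3.3) after filterByExpr and TMM, in 1 fit of stage over all 10 libraries (5 residual degrees of freedom), with Benjamini-Hochberg adjustment over 22596 genes. A call needed an adjusted p under 0.05 and at least 2-fold. SE were derived from the fold change and F. RPKM used the exon length of the count files, and log2 values a prior count of 2. Ratios were tested by exact permutation over libraries, on the sum of squares between the 5 stages. This tests no named pair of stages and no direction. Homeoboxes were found in GENCODE M21 transcripts with Biopython (v1.88) by the motif of the recognition helix, in the longest reading frame of each gene. scipy (v1.17.1) and matplotlib (v3.10.9) were used. Both tests were checked on simulated data.

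All 8 members were named; from the lists of partners, targets and markers, the genes called in a comparison; and for members spanning at least 4-fold the 3 genes with the highest r. Genes named outside this rule to say that they were not called were chosen after their values were seen. The members and lists were chosen with earlier results of these data known. The labels do not say whether libraries with the same replicate number are paired. The correlation of same-numbered deviations lay between -0.316 and 0.213, with both signs, which does not settle it. Alternatives were limma-voom (v3.58.1), DESeq2 (v1.42.0), total counts, no filter, the 4 libraries compared, a replicate block, library sizes without the top 20 genes, other fold thresholds, a prior count of 0.5, the deposited matrix, leaving out each library and, added after the data were seen, subtraction of the counts of Gm37818 and Gpsm3.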

Additional observations from a re-analysis of the deposited data

How the results depend on the processing

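Of the 8 genes, the number called at a step changed by over 1.5 times in the following settings. At a 4-fold threshold 1 was called from HB to HE1 (4 at 2-fold) and 0 from HE1 to HE2 (3 at 2-fold), and with only the 4 libraries compared 1 from HE1 to HE2. When 1 library was left out the number lay between 2 and 4 from HB to HE1 (2 without HB library 2), 0 and 4 from HE1 to HE2 (1 without HE1 library 2, 0 without HE2 library 2) and 2 and 5 for HP against HE1 (5 without HE1 library 1). Where a stage is left with 1 library, that library is assumed to vary like the others. Over all tested genes these counts moved too: from HE1 to HE2 they were 1954 in the fit reported, 535 with 4 libraries, 3818 with no filter, and 422 to 4295 with 1 library left out. With 1 library left out they ranged from 2803 to 5553 from HB to HE1 (4722 reported, 5694 with no filter) and from 1905 to 5461 for HP against HE1 (3735 reported, 4843 with no filter). From HE2 to HP they were 0 as reported, 62 with limma-voom, 301 with DESeq2, 534 with no filter and 0 to 525 with 1 library left out.

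With a replicate block the adjusted p of the Pbx4 to Pbx2 ratio was 0.075, and with 1 library left out it lay between 0.00529 and 0.142. The block changed no other call of a member or ratio. Whether the replicate numbers pair the libraries is not known.

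Changes that were not called turned direction with total counts for Pbx3 from HE1 to HE2 (-0.0069) and for Pbx2 from HE2 to HP (0.012). With 1 library left out they ranged, in log2, from -0.17 to 0.68 for Meis2, -0.97 to 1.04 for Pbx4 and -0.058 to 0.50 for Pknox1 from HB to HE1, and from -0.22 to 0.44 for Pbx3 from HE1 to HE2. From HE2 to HP the ranges were -0.60 to 0.15 for Meis1, -1.23 to 0.21 for Meis2, -0.12 to 0.17 for Meis3, -0.30 to 0.26 for Pbx2 and -0.19 to 0.42 for Pbx4. For HP against HE1 they were -0.41 to 0.25 for Pbx3, -2.02 to 0.014 for Pbx4 and -0.072 to 0.47 for Pknox1. The causes were not tested. The lowest counts of members were those of Pbx4 after ES (15 to 80) and of Pknox2 in HE2 and HP (14 to 48), and in ES library 2 Meis1 and Meis2 had 54 and 57. Libraries of a stage differed beyond counting error, with a chi-square per degree of freedom of 2.99 in ES and 26.2 to 60.8 in the other stages.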
